A study of Mus musculus with 21 samples.

Results

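Yap1 and Wwtr1 encode YAP and TAZ, the transcriptional coactivators at the end of the Hippo pathway. They were followed here together with the TEAD genes Tead1, Tead3 and Tead4, the angiomotin-like genes Amotl1 and Amotl2, and the target genes Ctgf, Cyr61 and Ankrd1. These 10 genes, among the 22050 entries of the expression table, were taken by gene symbol and not by their measured values. The measurements come from mRNA-seq of GFP+ keratinocytes sorted from the back skin of male mice of mixed FVB, C57Bl6 and 129sv background. All mice received doxycycline in the drinking water for 6 months, starting at the age of 3 weeks. The p16 group carried 3 transgenes (K5-rtTA/tet-GFP/tet-p16), so that the human cell-cycle inhibitor p16 and GFP were both switched on. The control group (K5-rtTA/tet-GFP) lacked tet-p16 and switched on GFP alone. The keratin 5 promoter drives rtTA, so both transgenes are limited to basal epidermal, follicular and other keratin 5-expressing cells. Each group had 4 samples, and each sample held 80000 GFP+ cells pooled from 3 mice after CD140a+, CD45+ and CD31+ cells were gated out. The comparison asks how p16 kept on for months in the epidermis alters the transcriptome of the cells carrying it.

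In the Hippo pathway, MST and LATS kinases phosphorylate YAP and TAZ, which are then held in the cytoplasm by 14-3-3 proteins or degraded. Unphosphorylated YAP and TAZ enter the nucleus and bind TEAD factors, which recognise the DNA letters CATTCC, read GGAATG on the other strand, and switch on genes such as Ctgf, Cyr61 and Ankrd1. In the epidermis this pathway is known for controlling growth of the basal layer and its response to cell density, stretch and wounding. Because YAP and TAZ are regulated mostly by phosphorylation and localisation, their mRNA levels do not measure their activity.

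The TEAD motif was looked up upstream of the genes to show where these factors could bind. RefSeq start-site windows of GRCm38.p6 were matched by symbol for 7 of the 10 genes, and the set of windows held none for Ctgf, Tead1 and Tead4. GGAATG was sought on either strand within 250 bases upstream of a start site. CATTCC is its reverse complement, and the 2 spellings do not overlap each other. The motif occurred at 1 or more start sites of 6 of these 7 genes, against 12.6% of all 32851 start-site windows. These units differ, since genes were counted in the former, and Wwtr1 has 2 start sites and Tead3 has 3. Amotl1 had no match in its window, which lay inside the annotated gene. Ankrd1 had 2 matches, as did 1 of the 3 start sites of Tead3, against 1.02% of all windows with at least 2. A match of 6 letters is a description of the window and not evidence of binding. The whole Cyr61 window, which ends at the start site, and 30 bases around the matches of Yap1, Wwtr1, Ankrd1 and Amotl2 are given 5′ to 3′ on the strand of the gene, with the motif in capitals.
Cyr61, chr3:145649986-145650235, minus strand, motif beginning 103 bases before the start site: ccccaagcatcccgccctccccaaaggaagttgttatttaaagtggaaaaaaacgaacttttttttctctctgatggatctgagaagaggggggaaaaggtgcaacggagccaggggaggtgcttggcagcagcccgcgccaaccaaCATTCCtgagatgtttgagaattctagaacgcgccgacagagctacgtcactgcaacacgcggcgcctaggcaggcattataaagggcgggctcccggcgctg
Yap1, chr9:8004720-8004749, minus strand, 141 bases before the start site: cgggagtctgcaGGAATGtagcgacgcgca
Wwtr1, chr3:57576029-57576058, minus strand, 136 bases before the start site: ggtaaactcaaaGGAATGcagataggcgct
Ankrd1, chr19:36120037-36120066, minus strand, 210 bases before the start site: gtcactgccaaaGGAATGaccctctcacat
Ankrd1, chr19:36119950-36119979, minus strand, 123 bases before the start site: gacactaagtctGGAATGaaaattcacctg
Amotl2, chr9:102717727-102717756, plus strand, 65 bases before the start site: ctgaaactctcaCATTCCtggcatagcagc
The 30-base stretches of Ankrd1 and Amotl2 overlap exons in the GENCODE M21 annotation, and those of Yap1 and Wwtr1 do not.

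The libraries sequence the 3′ ends of transcripts, so a gene's value is not divided by its length. The deposited value, called the normalized read count below, is the number of reads on a gene divided by a size factor of the sample. Depth was 1760953 to 3414362 reads per control sample and 2884544 to 3202975 per p16 sample. Normalized read counts of the human p16 transgene were low, at 0.7 to 2.5 in control samples and 7.4 to 16 in p16 replicates 2, 3 and 4. At 1.6, the sample labelled p16 replicate 1 lay within the control range, and results that turn on it are given without it as well. The transgene was not called (limma adjusted p = 0.0952). EGFP was called lower in p16 samples, at 4152 to 5913 in control and 3162 to 3979 in p16 samples (limma adjusted p = 0.0167). Across all genes, p16 replicate 4 differed from the other p16 samples by a chi-square of 6.75 to 8.96 per degree of freedom, whereas those 3 differed from each other by 3.05 to 3.31. Basal keratinocyte markers were abundant in all samples, with summed values over 6 genes of 23438 to 40560 in control and 25299 to 28934 in p16 samples, and 0 of them were called. Of 7 suprabasal markers 1 was called higher in p16 samples by limma (2 by DESeq2) and 2 lower, where limma called 1.24% of all tested genes higher and 2.61% lower. Endothelial markers summed to no more than 12 and smooth muscle markers to no more than 11.8 in any sample, with the endothelial genes Cdh5, Kdr and Emcn at 0 throughout. Immune markers summed to 105.5 to 129.7 in control and 109.1 to 159.3 in p16 samples, with Lyz2 at 0. Of 8 fibroblast markers 6 were tested, 4 higher and 2 lower, and Lum was at 0 throughout. Dcn was called higher, at 2.6 to 10.7 in control and 36.2 to 203 in p16 samples, whereas Col1a2 was at 4.2 to 17.8 and 1.6 to 3.3 and did not pass (limma adjusted p = 0.0571). The list's sum of 608 to 811 and 771 to 2951 was mostly Thy1.

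The genes of YAP, TAZ and their TEAD partners were expressed in both groups, and none of the 9 detected genes of the set passed the test between them. The differences ranged from a log2 fold change of -0.60 for Tead4 to 0.23 for Yap1, with 5 genes higher and 4 lower and a median of 0.08, beside -0.0027 over all 12782 genes tested. In limma on log2(normalized read count + 1), with Benjamini-Hochberg adjustment over all tested genes and a call at an adjusted p under 0.05, 0 of the 9 genes were called, while 3.86% of all tested genes were. By edgeR and by DESeq2 on the recovered reads 0 members were called as well, where these tools called 4.29% and 4.27% of their tested genes. At an unadjusted limma p under 0.05, 2 members differed, against 15.9% of all tested genes. These were Yap1, where 7.02% of all tested genes were higher, and Tead4, where 8.93% were lower. The same 2 genes were the only members whose 4 values per group did not overlap, which held for 9.83% of all tested genes, 4.19% higher and 5.63% lower.

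**Figure D1:**
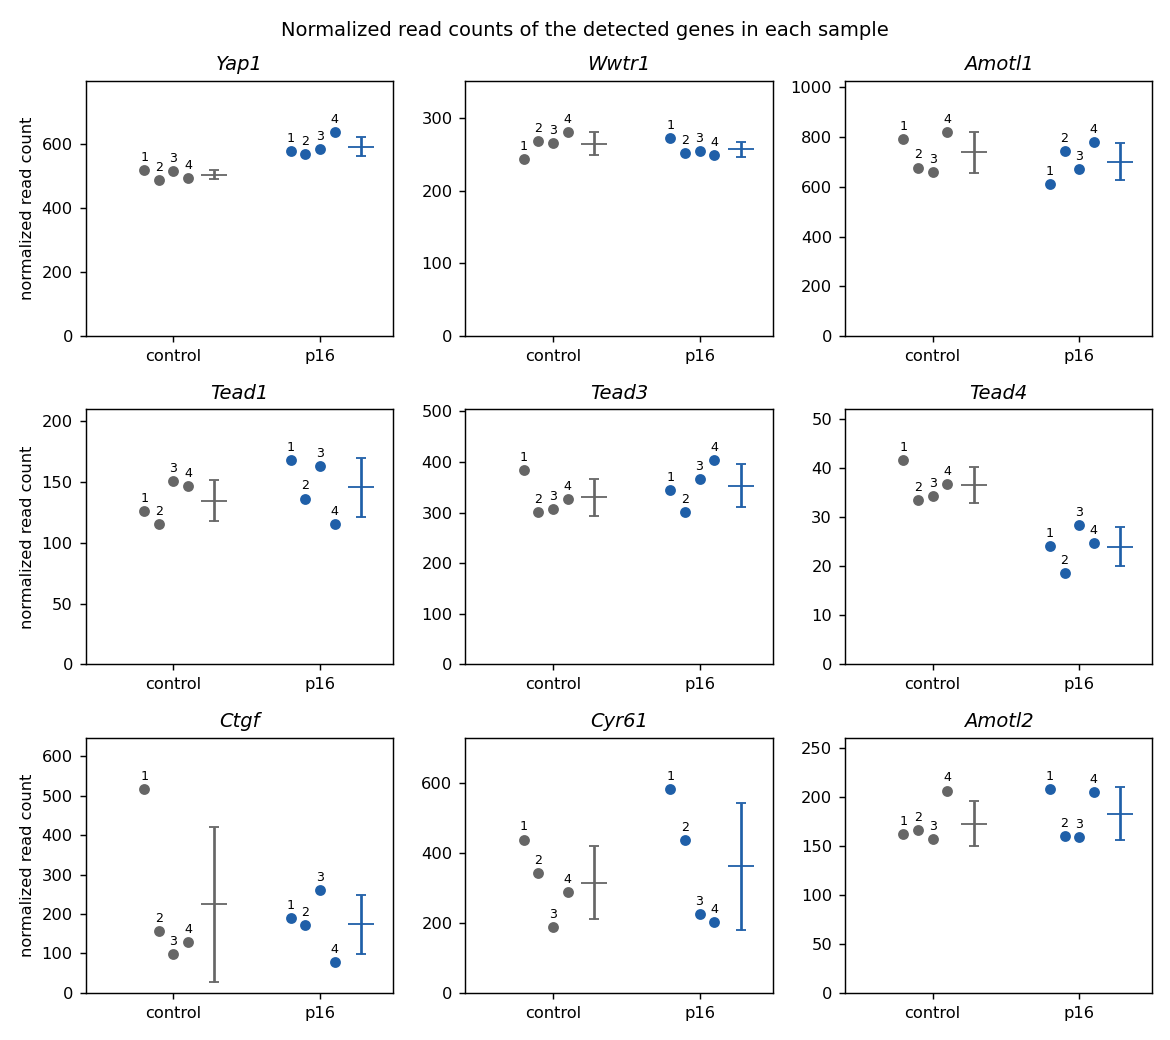
Normalized read counts (y axes, each from 0) of the 9 detected genes in the control samples (grey) and p16 samples (blue), with replicate numbers above the points and the group mean ± SD (n = 4) beside them. Yap1 (higher in p16 samples) and Tead4 (lower) have groups that do not overlap, while Ctgf spans 78.1 to 517.1 and Cyr61 188.8 to 582.9.

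Yap1 (ENSMUSG00000053110, chromosome 9 of GRCm38, 7931999 to 8004596, minus strand) was measured with 323 to 774 reads per sample. Its normalized read counts, in order of replicate number here and below, were 519.3, 487.7, 514.5 and 493.5 in control samples and 577.3, 567.6, 582.5 and 636.4 in p16 samples. Every p16 sample was above every control sample, with p16 replicate 4 the highest. The mean went from 504 ± 15.5 to 591 ± 30.9 (SD, n = 4 each), a 1.17-fold difference. On the log2 scale this was 0.23 (SE 0.08, 95% confidence interval 0.05 to 0.41), which did not pass the adjustment over all genes (limma adjusted p = 0.181). In an exact two-sided permutation test of Yap1 alone p was 0.0286, the smallest that 4 samples against 4 can give. Leaving out any 1 sample kept the Yap1 log2 fold change between 0.19 and 0.25, and without p16 replicate 1 it was 0.24 (limma adjusted p = 0.315).

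Wwtr1, the gene of TAZ (ENSMUSG00000027803, chromosome 3, 57455649 to 57575910, minus strand), had normalized read counts of 243.3, 268.2, 266.4 and 281.1 in control and 272.6, 252.2, 255.4 and 249.1 in p16 samples. These values interleaved, with control samples at both ends. For Wwtr1 the log2 fold change was -0.04 with a 95% confidence interval of -0.24 to 0.16, that is, between 0.847 and 1.12 times the control level (limma adjusted p = 0.897; exact two-sided permutation p = 0.457). The interval of Yap1, from 1.03 to 1.33 times the control level, overlaps that of Wwtr1, and the difference between the 2 genes was not tested. As a description within each sample, the ratio of Yap1 to Wwtr1 reads was 2.13, 1.82, 1.93 and 1.76 in control replicates and 2.12, 2.25, 2.28 and 2.55 in p16 replicates. The groups overlapped in this ratio only through control replicate 1 and p16 replicate 1. The summed Yap1 and Wwtr1 value was 755.9 to 780.9 in control and 819.8 to 885.5 in p16 samples.

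Yap1 and Wwtr1 were also among the most evenly expressed genes between replicate samples. The SD of log2 values within groups was 0.061 for Yap1, a spread below which 0.524% of all tested genes fell, and 0.074 for Wwtr1, below which 1.33% fell. The median over all tested genes was 0.25. Counting error alone, from the read numbers, amounted to 0.061 for Yap1 and 0.087 for Wwtr1, as large as the replicate spread of either gene or larger.

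**Figure D2:**
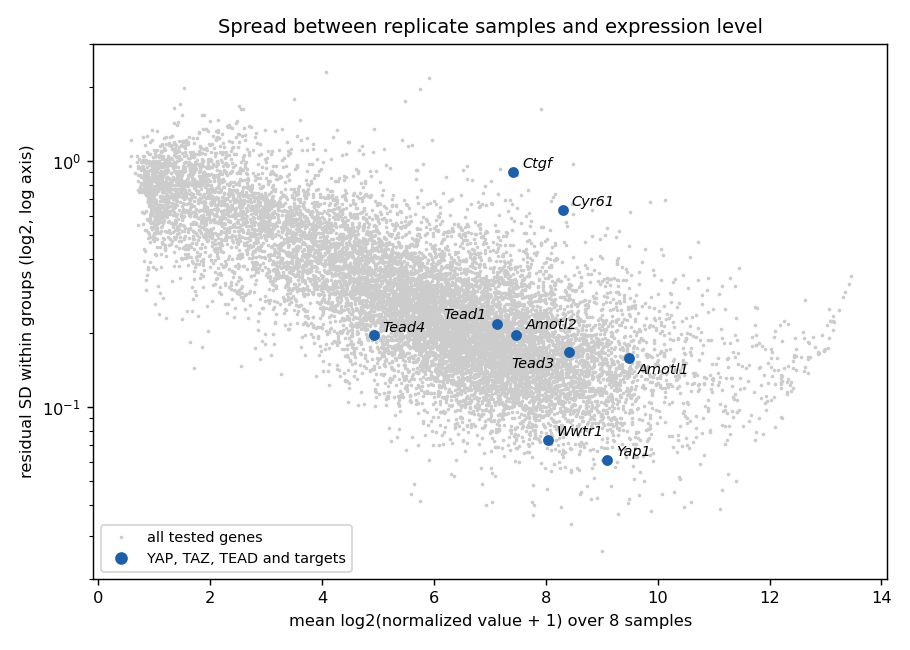
Spread between replicate samples against expression level: the x axis is the mean log2(normalized read count + 1) over the 8 samples and the y axis, on a log scale, is the residual SD of log2 values within groups. Grey points are the 12782 tested genes and blue points the 9 detected genes of the YAP, TAZ and TEAD set: Yap1 (0.061) and Wwtr1 (0.074) lie at the lower edge of the cloud, and Ctgf (0.91) and Cyr61 (0.64) near its upper edge for their level.

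The TEAD genes encode the DNA-binding partners of YAP and TAZ. Tead1 (ENSMUSG00000055320, chromosome 7, 112679318 to 112906807) had normalized read counts of 126.1, 115.5, 151.2 and 146.7 in control and 167.9, 136.6, 163.1 and 115.9 in p16 samples. Tead3 (ENSMUSG00000002249, chromosome 17, 28331671 to 28350817), the TEAD gene with the most reads, had 383.5, 301.6, 307.4 and 326.9 in control and 343.8, 300.6, 366.2 and 402.9 in p16 samples. For both genes the groups overlapped widely. The log2 fold change of Tead1 was 0.11 (95% confidence interval -0.20 to 0.41, limma adjusted p = 0.797) and that of Tead3 was 0.10 (-0.15 to 0.34, limma adjusted p = 0.757). These intervals correspond to 0.872 to 1.33 times the control level for Tead1 and 0.904 to 1.27 times for Tead3.

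Tead4 (ENSMUSG00000030353, chromosome 6, 128224288 to 128300823) was the scarcest detected member, with 24 to 56 reads per sample. Its normalized read counts were 41.5, 33.4, 34.2 and 36.7 in control and 24.0, 18.7, 28.4 and 24.7 in p16 samples. All p16 samples lay below all control samples. The p16 mean of 23.95 ± 4.00 was 0.657 times the control mean of 36.45 ± 3.65 (SD, n = 4 each). The log2 fold change of -0.60 (SE 0.20, 95% confidence interval -1.02 to -0.18) did not pass the adjustment (limma adjusted p = 0.126), and the exact two-sided permutation p was 0.0286. Over the other fits the adjusted p of Tead4 ranged from 0.107 in edgeR to 0.295 in limma without control replicate 1, and without p16 replicate 1 its log2 fold change remained at -0.60.

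Tead2 (ENSMUSG00000030796, chromosome 7, 45215753 to 45233644), the remaining TEAD gene, is not among the 10 genes and had only 7 to 30 reads per sample, with a second entry of the same symbol at 0 throughout. Its normalized read counts were 14.8, 12.8, 25.1 and 36.7 in control and 5.6, 11.7, 8.0 and 6.6 in p16 samples, again without overlap and lower in the latter. The Tead2 log2 fold change was -1.31 (95% confidence interval -2.05 to -0.57), with an adjusted p of 0.0512 in limma, 0.0462 in edgeR and 0.0291 in DESeq2. In limma, the call for Tead2 depended on single libraries, since it passed without control replicate 2 (adjusted p = 0.0337) and without p16 replicate 2 (0.0387) but not without any of the other 6 samples (up to 0.151, without p16 replicate 1).

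Within each sample the reads on the 4 TEAD genes were then divided among them, as a description without a test. Tead4 took 7.33%, 7.21%, 6.60% and 6.71% of the TEAD reads in control replicates and 4.43%, 4.00%, 5.02% and 4.49% in p16 replicates. For Tead2 the shares were 2.62%, 2.76%, 4.85% and 6.71% in control and 1.03%, 2.50%, 1.41% and 1.20% in p16 replicates. Neither gene's groups overlapped in share. Tead3 held 59.4% to 67.8% in control and 63.5% to 73.2% in p16 samples, and the summed TEAD value overlapped between the groups, at 463.3 to 565.9 and 467.6 to 565.7.

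**Figure D3:**
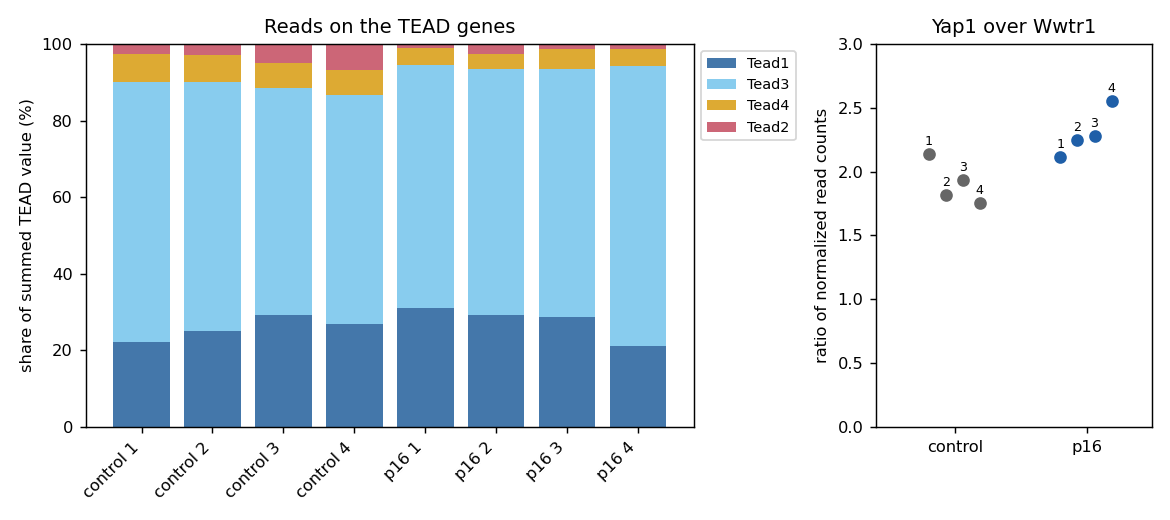
Left, share (%) of the summed normalized read count of the 4 TEAD genes taken by each gene in every sample: Tead4 takes 6.60% to 7.33% in control samples and 4.00% to 5.02% in p16 samples. Right, ratio of the Yap1 to the Wwtr1 normalized read count per sample, with replicate numbers above the points: 1.76 to 2.13 in control and 2.12 to 2.55 in p16 samples.

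Markers of hair-follicle stem cells, sebaceous gland and melanocytes were lower in the same samples as Tead4 and Tead2. In limma, 5 of 6 follicular stem cell markers were called lower in p16 samples, with summed values of 11388 to 15555 in control and 8368 to 8821 in p16 samples. Of the 6 sebaceous markers 5 were tested and all 5 were called lower by limma, which called 2.61% of all tested genes lower. Their sums were 1209 to 1413 against 358 to 581. All 4 tested melanocyte markers were lower and limma called 2 of them, Dct and Tyrp1, with sums over 5 genes of 63.4 to 411 against 13.9 to 80.4. By edgeR 5 follicular, 4 sebaceous and 1 melanocyte marker were called lower, and by DESeq2 5, 4 and 2. The part of this difference in cell make-up in the Tead4 and Tead2 values was not tested. In pooled cells such as these, fewer cells of a type and less RNA of a gene per cell cannot be told apart.

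Amotl1 and Amotl2 encode angiomotin-like junction proteins that bind YAP and keep it out of the nucleus, and Amotl2 is in turn switched on by YAP. Amotl1 (ENSMUSG00000013076, chromosome 9, 14541966 to 14645056), the most abundant gene of the set, had normalized read counts of 793.8, 677.6, 660.6 and 820.4 in control and 610.1, 743.3, 672.1 and 781.1 in p16 samples. Amotl2 (ENSMUSG00000032531, chromosome 9, 102716672 to 102733418) had 161.7, 165.6, 157.0 and 206.3 in control and 207.9, 160.1, 158.7 and 204.7 in p16 samples. Values of the groups overlapped for both genes. For Amotl1 the log2 fold change was -0.07 (95% confidence interval -0.30 to 0.16, limma adjusted p = 0.819), between 0.811 and 1.11 times the control level. That of Amotl2 was 0.08 (-0.20 to 0.36, limma adjusted p = 0.846), between 0.870 and 1.28 times. Amotl2 carried the motif upstream of the start site used and Amotl1 did not. Both windows, 14615001 to 14615250 for Amotl1 and 102717554 to 102717803 for Amotl2, lay inside the annotated genes. The sequence before the outer 5′ end of either gene was not searched.

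Ctgf and Cyr61 encode secreted matricellular proteins and are the usual readouts of YAP and TAZ activity. They showed the reverse of the even expression of Yap1 and Wwtr1. Ctgf (ENSMUSG00000019997, chromosome 10, 24595442 to 24598683) had normalized read counts of 517.1, 156.6, 97.7 and 128.3 in control and 188.7, 171.8, 259.8 and 78.1 in p16 samples. Control replicate 1 was the highest and p16 replicate 4 the lowest, a 6.62-fold span. Means were 225 ± 196 in control and 175 ± 74.8 in p16 samples (SD, n = 4 each). The log2 fold change of -0.16 (95% confidence interval -1.07 to 0.76, limma adjusted p = 0.914) allows anything between 0.475 and 1.70 times the control level. The sign of the Ctgf difference rested on single libraries: without control replicate 1 the control mean was 128 ± 29.5 (n = 3) and the log2 fold change 0.35 (limma adjusted p = 0.713), and without p16 replicate 4 it was 0.19 (limma adjusted p = 0.884).

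Cyr61 (ENSMUSG00000028195, chromosome 3, 145646976 to 145649981), whose upstream sequence is printed above, had normalized read counts of 438.4, 343.9, 188.8 and 288.8 in control and 582.9, 438.0, 225.2 and 201.4 in p16 samples. The p16 samples split, with replicates 1 and 2 at 438.0 or more and replicates 3 and 4 at 225.2 or less, and all but replicate 1 lay within the range of the control samples. Means of Cyr61 were 315 ± 104 and 362 ± 182 (SD, n = 4 each). Its log2 fold change was 0.12 (95% confidence interval -0.53 to 0.78, limma adjusted p = 0.904), between 0.693 and 1.71 times the control level. This sign also turned on single libraries, with -0.10 without control replicate 3, -0.15 without p16 replicate 1 and -0.02 without p16 replicate 2. The SD within groups on the log2 scale was 0.91 for Ctgf and 0.64 for Cyr61, above those of 96.2% and 87.7% of all tested genes. It was 7.74 times the counting error for Ctgf and 7.68 times for Cyr61.

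Ankrd1, a nuclear ankyrin-repeat protein gene and a strong YAP target in stretched and cultured cells, had 0 reads in each of the 8 samples. With 10310753 reads in all control and 12407030 in all p16 samples, 0 reads were taken to allow an expected count of up to about 3 over a group. That is 0.291 and 0.242 CPM. These limits cover counting error only. The gene (ENSMUSG00000024803, chromosome 19, 36111961 to 36120099, minus strand) was therefore below detection in both groups and could not be compared.

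The libraries that were high for Cyr61 were also high for several immediate early genes, which respond to stress and growth signals within minutes and include the AP-1 subunits that often bind beside TEAD. Among 12 such genes, 4 (Fos, Fosb, Atf3 and Egr1) had the same top 3 libraries as Cyr61, namely p16 replicate 1, control replicate 1 and p16 replicate 2. Another 3 of the 12 shared 2 of these libraries and the other 5 shared 1. The genes named here were picked after their values had been seen.

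Fos normalized read counts were 557.1, 426.1, 407.6 and 469.0 in control and 660.4, 576.2, 151.6 and 98.7 in p16 samples. Atf3 had 245.5, 86.0, 40.9 and 44.3 in control and 187.1, 142.9, 64.7 and 99.5 in p16 samples. Control replicate 1, in which Ctgf stood highest, was the highest of all samples for Atf3, and p16 replicates 3 and 4 were the lowest for Fos. In p16 replicate 3, however, Ctgf was at 259.8, below only control replicate 1, while Fosb had its lowest value there, 41.7. Control replicate 1 also had the highest summed melanocyte marker value, 411, where the other control samples went down to 63.4 and p16 samples ranged from 13.9 to 80.4. The part of early gene expression or of melanocyte RNA in the Ctgf and Cyr61 values was not tested. Between the groups, 5 of the 12 early genes were higher and 7 lower, with a median log2 fold change of -0.08. By limma, edgeR and DESeq2 0 of them were called, where these tools called 3.86%, 4.29% and 4.27% of their tested genes. Egr2 had the lowest unadjusted limma p, the only 1 of the 12 under 0.05, against 15.9% of all tested genes. It was at -0.43 on the log2 scale (limma adjusted p = 0.167, and 0.0364 without p16 replicate 2).

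**Figure D4:**
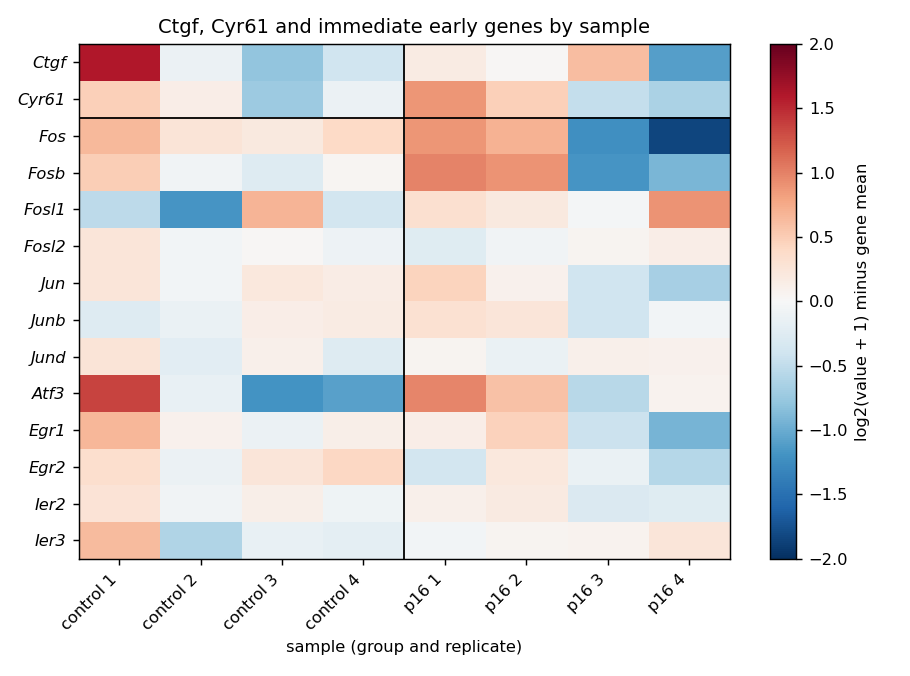
Ctgf, Cyr61 and 12 AP-1 subunit and immediate early genes (rows) in the 8 samples (columns), coloured by log2(normalized read count + 1) minus the gene's mean over all samples, from blue (low) to red (high). Control replicate 1 and p16 replicates 1 and 2 are high, and p16 replicates 3 and 4 low, for Cyr61, Fos and Fosb.

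Upstream of YAP and TAZ, the Hippo kinases and their scaffolds were measured for 19 of 20 genes, with Map4k1 under the filter on low values. Of these 9 were higher and 10 lower, and the median log2 fold change was -0.02. The core kinases did not pass the test, with log2 fold changes of -0.28 for Stk3 (MST2), -0.03 for Stk4 (MST1), 0.17 for Lats1 and 0.19 for Lats2 (limma adjusted p = 0.692, 0.943, 0.692 and 0.574). Mob1b, an activator of LATS, had groups that did not overlap, at 76.4 to 91.9 in control and 45.2 to 74.5 in p16 samples, and a log2 fold change of -0.45 that did not pass (limma adjusted p = 0.173). Map4k4, a kinase that can phosphorylate LATS in parallel with MST, was the 1 gene of the 19 called, and it fell, where 2.61% of all tested genes were called lower. Its normalized read counts were 307.1, 237.4, 288.1 and 249.0 in control and 202.3, 188.9, 213.7 and 163.6 in p16 samples, without overlap. For Map4k4 the log2 fold change was -0.49 (95% confidence interval -0.74 to -0.24, limma adjusted p = 0.0322). The call was lost without control replicate 1 (adjusted p = 0.119) or 3 (0.0961) and without p16 replicate 1 (0.0713), 2 (0.0652) or 4 (0.0535). It was also lost without replicate 3 of both groups (0.108) and under total count scaling (0.0701). Over the 17 other fits Map4k4 was called in 10, among them edgeR (adjusted p = 0.0289) and DESeq2 (0.00993).

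A list on binding, retention and turnover of YAP and TAZ, with 14-3-3 genes, also held Ajuba family genes, whose products bind LATS kinases. All 18 of its genes were measured. Of these 13 were higher and 5 lower, and the median log2 fold change was 0.03. By limma, edgeR and DESeq2 0 were called, beside 3.86%, 4.29% and 4.27% of the genes each tool tested. In limma 2 of them were lower at an unadjusted p under 0.05, against 15.9% of all tested genes in either direction. Sfn, the keratinocyte 14-3-3 protein gene, was at 0.0071 on the log2 scale (limma adjusted p = 0.988). The LIM protein genes Ajuba and Limd1, whose products bind LATS kinases, were at 0.04 and 0.24 (limma adjusted p = 0.912 and 0.373).

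Among competitors of YAP for TEAD, Vgll1 and Vgll2 were at 0 in every sample. Vgll4, which represses TEAD targets, was at -0.17 on the log2 scale (limma adjusted p = 0.741) and Vgll3 at 0.10 (limma adjusted p = 0.907). With Tead2 counted in, 0 of the 3 measured genes of this list were called by limma and 1, Tead2, by edgeR and DESeq2. Over all genes they tested, limma called 3.86%, edgeR 4.29% and DESeq2 4.27%. Of the Fat and Dachsous cadherins, which act on the pathway from the cell surface, Fat1 and Fat2 were the only 2 of 6 that passed the filter. Neither was called by limma, edgeR or DESeq2, and neither had an unadjusted limma p under 0.05, against 15.9% of all tested genes. Fat1 had normalized read counts of 106.8 to 124.5 in control and 113.5 to 148.7 in p16 samples, a log2 fold change of 0.14 (95% confidence interval -0.12 to 0.40, limma adjusted p = 0.649).

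Further targets of YAP and TAZ were taken from a target signature widely used in cancer, without the members above. Of its 18 genes 17 were tested, 10 higher and 7 lower in p16 samples. The median log2 fold change was 0.06 beside -0.0027 over all tested genes. Tgfb2 rose and Nt5e fell, where 1.24% of all tested genes were called higher and 2.61% lower. At an unadjusted limma p under 0.05, 3 were higher and 2 lower, where 7.02% of all tested genes were higher and 8.93% lower. Lats2 and Ptpn14 stand both in this list and in one above.

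Tgfb2, a ligand of the TGFβ family, had normalized read counts of 36.3, 27.0, 21.7 and 21.4 in control and 76.8, 82.0, 151.6 and 44.4 in p16 samples. All p16 samples were above all controls, a difference of 1.60 on the log2 scale (limma adjusted p = 0.00715, and 0.0503 without replicate 3 of both groups). Nt5e, the ecto-nucleotidase CD73, had 216.6, 157.9, 133.6 and 131.4 in control and 111.1, 68.7, 111.7 and 87.2 in p16 samples. Its groups did not overlap either, and the log2 fold change was -0.75 (95% confidence interval -1.14 to -0.35, limma adjusted p = 0.0362). The Nt5e call was lost without control replicate 1 (adjusted p = 0.124) or 2 (0.0815) and without p16 replicate 1 (0.0512) or 2 (0.0846). It was also lost without replicate 3 of both groups (0.0548) and under total count scaling (0.0565). Over the 17 other fits Nt5e was called in 11, among them edgeR (adjusted p = 0.0340) and DESeq2 (0.00928). The other 15 genes of the signature were not called, among them Axl, a receptor tyrosine kinase, at 0.18, Crim1 at -0.05 and Gadd45a at 0.32 (limma adjusted p = 0.576, 0.895 and 0.353). Larger differences that did not pass were those of Rbms3 at -1.01, Ccdc80 at 1.31 and Arhgef17 at 0.46 (limma adjusted p = 0.119, 0.283 and 0.230). Of these, Ccdc80 had low values and only Arhgef17 had groups that did not overlap.

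Of 8 other genes often cited as YAP and TAZ targets, 4 were higher and 4 lower, with a median log2 fold change of -0.05, and 1 was called, higher, as were 1.24% of all tested genes. Ccnd1, the gene of cyclin D1, which also answers to Wnt and growth factor signals, rose. Its normalized read counts were 905.8, 678.9, 612.2 and 715.0 in control and 1210.5, 1314.8, 1424.9 and 1358.3 in p16 samples. Each p16 sample was above each control sample. The p16 mean was 1.82 times the control mean, and the log2 fold change was 0.88 (95% confidence interval 0.63 to 1.12, limma adjusted p = 0.000452). Ccnd1 was called in every other fit that was run, with an adjusted p of at most 0.0102. Inhba, an activin subunit gene with low values of 2.6 to 4.6 in control and 4.1 to 23.1 in p16 samples, differed most, by 1.43 on the log2 scale, but did not pass (limma adjusted p = 0.0941). Myc was at 0.22 on the log2 scale (limma adjusted p = 0.503), Birc5, a mitotic survival gene, at -0.40 (0.345) and Thbs1, a secreted matrix protein gene, at -0.41 (0.391).

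**Figure D5:**
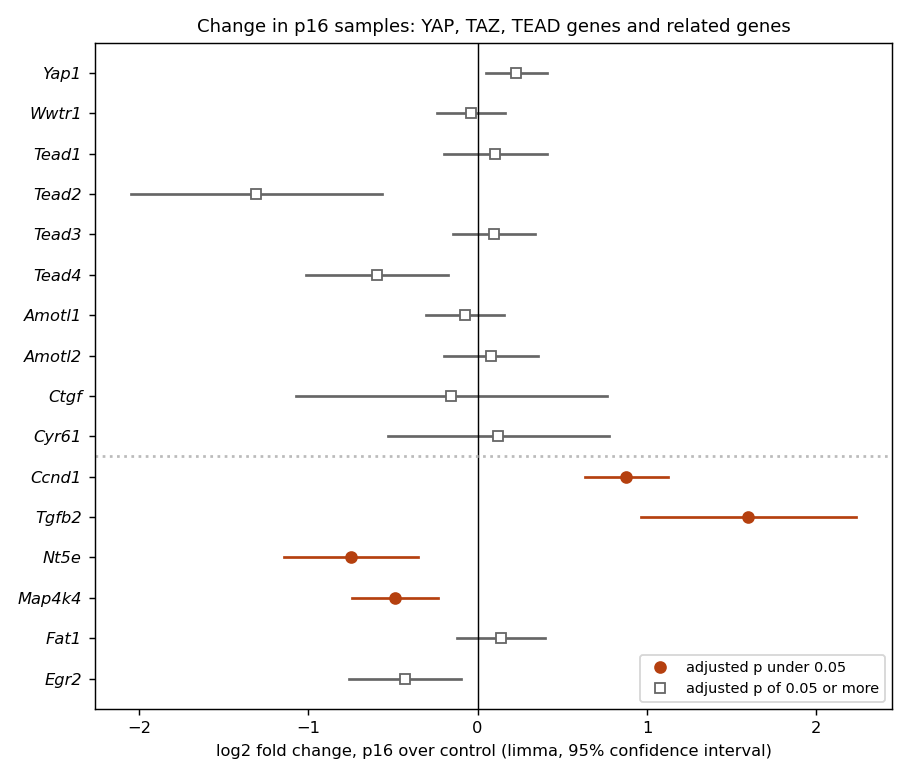
Log2 fold change of p16 over control samples (limma, point) with its 95% confidence interval (line) for the detected genes of the set and Tead2, above the dotted line, and for the called or lowest-p genes of the related lists below it. Filled red points have an adjusted p under 0.05 (Ccnd1, Tgfb2, Nt5e and Map4k4) and open squares do not.

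Genes whose pattern over the 8 samples was most like that of Yap1 were Rab8b, a GTPase of vesicle transport, Crtap, a part of the complex that hydroxylates collagen, and Ncdn. The likeness is the root mean square difference of log2 values after centring each gene, and it was 0.0483 for Rab8b, 0.0508 for Crtap and 0.0528 for Ncdn, where the spread of Yap1 itself was 0.126. Rab8b had normalized read counts of 47.4 to 51.9 in control and 56.2 to 58.4 in p16 samples. For Ctgf the nearest genes were Gm13248, Wif1 and Lef1, at 0.384, 0.397 and 0.424, where the spread of Ctgf itself was 0.790. Wif1, a secreted Wnt inhibitor gene, had 80.1, 24.4, 13.4 and 29.0 in control and 25.6, 39.8, 33.7 and 6.6 in p16 samples. Like Ctgf, it was highest in control replicate 1 and lowest in p16 replicate 4. Gm13248 and Lef1 had values under 20 in all samples, and these patterns are given over 8 samples without a test.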

How the data were processed

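GFP+ keratinocytes were profiled by mRNA-seq in 8 samples, grouped by their titles. The column names alone would suit both of the study's profilings and were assigned to the first, because the labels of the second name another table. Following a modified CEL-Seq2 method, the authors prepared 3′ libraries, then trimmed reads (Cutadapt) and aligned them to GRCm38 (TopHat2). HTSeq and DESeq2 are named in the submitters' processing notes, and use of molecular identifiers is not given in the sources used here. The deposited signal is reads per gene divided by a size factor and rounded to 1 decimal. Whole reads (within 0.15 read) were recovered for 100% of values. The deposited group means and test statistics were not used, and 13 samples of a second profiling were not analysed here. The labels word the library protocol differently for replicate 3 of each group.

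The p16 and control samples were compared in limma 3.58.1 (moderated with a trend, R 4.3.3) on log2(value + 1), for the 12782 genes with a mean of at least 1, without a replicate term. Fold changes on this scale understate those of low genes. Single genes had an exact two-sided permutation test (scipy 1.17.1). Alternatives were edgeR 4.0.16 (TMM, 10700 genes) and DESeq2 1.42.0 (15392 genes, 12705 with an adjusted p) on recovered reads, a pseudocount of 0.1, no filter or a mean of at least 10, a replicate block, the protocol wording as covariate, total count scaling, unadjusted p-values and left-out samples. The fits were tested on simulated data. Coordinates (GRCm38) were taken from GENCODE M21, and upstream sequences are from RefSeq (GRCm38.p6). The genes and lists were chosen with earlier results of these data known. Genes named are the 10 members, Tead2, each called gene of the related lists or else the gene with the lowest p, and the 3 nearest in pattern to Yap1 and to Ctgf. A gene that meets this rule is not reported here. Further genes of those lists were named after their values were seen.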

Additional observations from a re-analysis of the deposited data

Results flagged for a closer look

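Ctgf in control replicate 1 stood far from the other control samples. Its normalized read count there was 517.1, and the gap to the nearest control sample was 0.860 of the range of the group, above Dixon's critical value for 4 samples. Of 34 groups of 4 samples examined in this way, 1 was flagged, and chance flags about 1 in 20. Without that sample the Ctgf log2 fold change was 0.35 in place of -0.16, and neither value passed the test (limma adjusted p = 0.713 and 0.914).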

How the results depend on the processing

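None of the 9 tested genes of the set was called in any fit with adjusted p-values, where the main fit called 3.86% of all tested genes. At an unadjusted p under 0.05, 2 differed, against 15.9% of all tested genes. Over the 17 other fits the adjusted p was 0.120 to 0.345 for Yap1 and 0.107 to 0.295 for Tead4. The number of genes higher and lower in p16 samples over the whole table, 159 and 334, was 66 and 157 without replicate 3 of both groups, and 897 and 1141 at an unadjusted p under 0.05. It was 69 to 196 and 177 to 343 with each sample left out in turn, lowest for higher genes without p16 replicate 1 and for lower genes without control replicate 1. By edgeR 160 and 299 genes were called, and by DESeq2 188 and 355. With each single sample left out in turn, the log2 fold change of Ctgf changed sign within a range of -0.44 to 0.35, and that of Cyr61 within -0.15 to 0.36, and the cause was not tested. Without replicate 3 of both groups that of Ctgf was -0.68. Same-numbered control and p16 samples had weak positive correlations of their deviations (0.0215 to 0.178, 2 of 4 over 0.1). Differently numbered samples had -0.161 to 0.131, and 5 of 8 samples were closest to their own number. According to the paper, the replicates came from several independent experiments, and control mice were siblings treated alongside. The sources used here do not say which sample came from which experiment. The main fit therefore did not take the numbers as pairs, and the part of shared experiments in the values was not tested. With the replicate block 216 genes were higher and 392 lower, and 0 members were called. Over all settings and the genes with a fold change tabulated, 265 values kept their direction and side of the threshold, 14 lost a call (Map4k4, Nt5e and Tgfb2), 5 gained one (Tead2 and Egr2) and 5 changed sign (Ctgf and Cyr61). Depth limits Tead4, with 24 reads in its lowest sample, and Ankrd1, with 0.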
